A study of Homo sapiens with 6 samples.

Results

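The DNA replication machinery genes are 52 genes that act at the G1/S transition and in S phase. They encode the proteins that license replication origins, the MCM helicase and its activators, the sliding clamp, the polymerases, enzymes of nucleotide supply and regulators of S phase entry. The genes were taken by symbol from a fixed list, and all 52 were found among the 20332 genes of the count table. RNA was taken from Huh-7, an established human hepatocellular carcinoma cell line, and sequenced after enrichment of polyadenylated RNA to ask which genes differ when RAC3, a small GTPase, is overexpressed. The RAC3 overexpression group (3 samples) was a Huh-7 line that stably carried RAC3 from a lentivirus, and the negative control group (3 samples) was its corresponding control line. The promoter that drove RAC3, what the control line carried and whether each line was a clone or a pool are not given in the sources used here. The genotype labels of RAC3 samples 2 and 3 name RAC4 and RAC5 while the titles name RAC3, and both samples were kept in the RAC3 group. The samples are described as independent RNA samples without mention of separate cultures, so the p-values measure only the spread between these samples, which may be technical. Overexpression of RAC3 and any other difference between the lines cannot be told apart.

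Before S phase, the origin recognition complex marks replication origins and, with CDC6 and CDT1, loads the MCM helicase onto DNA, a step called licensing. At S phase entry, cyclin-dependent kinases and the CDC7-DBF4 kinase turn loaded MCM into the active helicase with CDC45 and GINS, and DNA polymerases alpha, delta and epsilon copy the strands behind a sliding clamp. Many of these genes are transcribed under E2F factors as cells leave G1, so their RNA is abundant in cycling cells such as liver cancer lines and low in resting hepatocytes.

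Summed over genes, the libraries of negative controls 1, 2 and 3 held 14368764, 15269997 and 18199888 counts, and those of RAC3 samples 1, 2 and 3 held 17332318, 16225766 and 13855762. Levels are given as CPM, counts put on an equal library size with edgeR's TMM factors. Where no read was counted, a level of up to 3 counts (0.167 to 0.215 CPM) is possible by counting error alone. Single members had between 115 counts (CCNE2) and 18914 counts (MCM7) in a sample, and together the members took 0.655% to 0.673% of a sample's counts. RAC3 itself had 35.6, 31.4 and 32.8 CPM in the negative controls and 233, 239.6 and 225 CPM in the RAC3 samples (log2 fold change 2.81, standard error 0.0574, edgeR adjusted p = 9.6e-18 from the quasi-likelihood test with Benjamini-Hochberg adjustment). All 3 RAC3 samples lay far above the controls, including samples 2 and 3.

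The machinery did not move in a single direction. Of 52 members, 11 were higher in the RAC3 samples at an edgeR adjusted p below 0.05, which is 21.2% of the members beside 13.3% of the 12941 genes tested. Another 7 were lower, 13.5% of the members beside 15.3% of the genes tested. The members that rose were ORC3, ORC4, ORC5, ORC6, MCM8, GINS4, DBF4, RFC3, RRM1, CCNE2 and SKP2, and those that fell were CDT1, MCM2, MCM7, POLD1, POLE, LIG1 and TK1. The share of higher members was above that of all genes and the share of lower members slightly below it, a difference that was not tested. The changes were small. The log2 fold changes ran from -0.49 (CDT1) to 0.65 (CCNE2), with a median of 0.02 over the members and 0.004 over the genes tested. At the study's thresholds of a fold change above 1.5 and an unadjusted p below 0.05, CCNE2 alone was higher (1.92% of members beside 1.68% of genes tested). No member was lower by these thresholds with edgeR's quasi-likelihood test, DESeq2, edgeR's exact test or limma-voom, while 2.99% of the genes tested were. At an unadjusted p below 0.05 without the fold limit, 13 members were higher and 9 lower, beside 2458 higher and 2621 lower of the 12941 genes tested. In bulk RNA, a smaller share of cells in S phase and less RNA per cell cannot be told apart.

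The groups did not overlap for 24 members. For 15 members every RAC3 sample lay above every control (28.8% beside 20.9% of genes tested), and for 9 members every RAC3 sample lay below (17.3% beside 21.6%). Besides the called genes, the higher set held CDC45, CDC7, MCM10 and POLA2 and the lower set held MCM3 and E2F1, none of which passed the adjusted threshold.

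**Figure D1:**
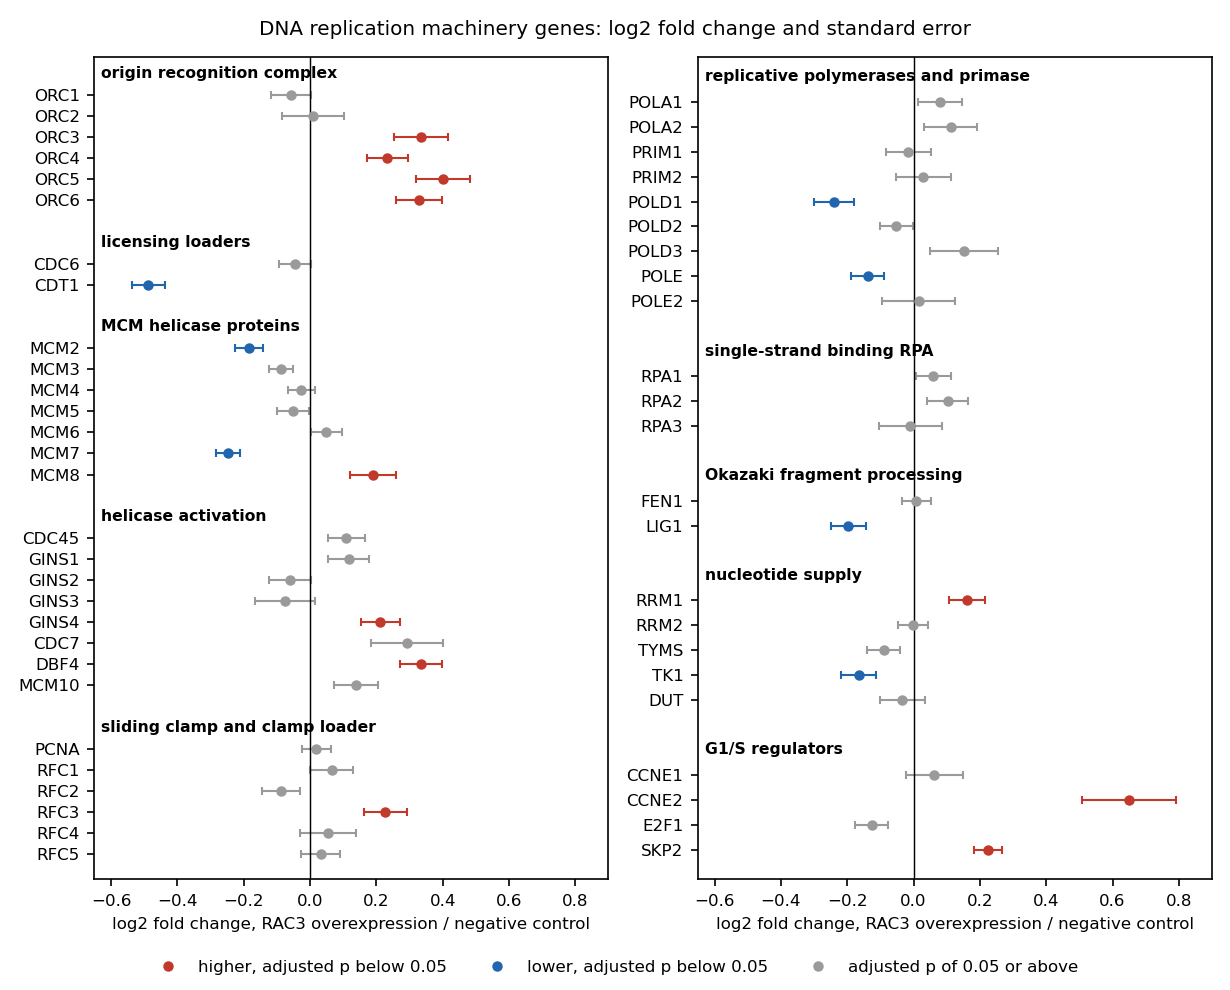
Log2 fold change of each of the 52 members (RAC3 overexpression over negative control, 3 samples each) with its standard error from edgeR's quasi-likelihood fit, grouped by role. The origin recognition complex has 4 of its 6 genes to the right of 0 in red, while CDT1, at -0.49, lies farthest to the left.

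The origin recognition complex binds origins and stays on chromatin through much of the cell cycle, and 4 of its 6 subunit genes rose (beside 13.3% of all tested genes). When the GC trend described below was removed, ORC5 and ORC6 kept their calls, ORC3 and ORC4 lost theirs, and the median log2 fold change of the complex went from 0.28 to 0.13. ORC5 had 26.5, 23.4 and 22.4 CPM in the negative controls and 31.2, 32.1 and 31.9 CPM in the RAC3 samples (log2 fold change 0.40, standard error 0.081, edgeR adjusted p = 0.0011). ORC6 had 43.1, 37.4 and 41.1 CPM in the negative controls and 52.4, 47.9 and 52.3 CPM in the RAC3 samples (log2 fold change 0.33, standard error 0.0698, edgeR adjusted p = 0.0016). For both genes the lowest RAC3 sample lay above the highest control, and the controls of ORC5 spread more widely than its RAC3 samples. ORC3 had 28.9, 30.1 and 29.1 CPM in the negative controls and 41.6, 35.4 and 33.8 CPM in the RAC3 samples (log2 fold change 0.33, standard error 0.0818, edgeR adjusted p = 0.0047). ORC4 had 49.4, 51.2 and 49.6 CPM in the negative controls and 62.1, 57.7 and 56.5 CPM in the RAC3 samples (log2 fold change 0.23, standard error 0.0616, edgeR adjusted p = 0.0078). Again the groups were apart, with RAC3 sample 1 the highest for both. ORC1, the subunit whose level varies with the cell cycle, had 51.3, 49.7 and 51.9 CPM in the negative controls and 49.8, 49.4 and 47.7 CPM in the RAC3 samples (log2 fold change -0.06, edgeR adjusted p = 0.52), and its groups overlapped. ORC2 had a log2 fold change of 0.01 (edgeR adjusted p = 0.96).

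CDC6 and CDT1 bring the MCM helicase to the origin recognition complex. CDT1 (ENSG00000167513, chr16:88803213-88809258 on GRCh38) is the loader that is destroyed in S phase to prevent a repeat of licensing, and it had the largest fall among the members. Its values were 235, 215 and 211 CPM in the negative controls and 151, 157 and 163 CPM in the RAC3 samples (log2 fold change -0.49, standard error 0.0506, edgeR adjusted p = 1.2e-06). All RAC3 samples were well below all controls, and the fall stayed between -0.52 and -0.44 on the log2 scale when any single sample was left out. Taking out the GC trend described below left a smaller log2 fold change of -0.27 (edgeR adjusted p = 4.7e-05). CDC6, an ATPase that works beside it, had 126, 127 and 134 CPM in the negative controls and 127, 121 and 127 CPM in the RAC3 samples (log2 fold change -0.05, edgeR adjusted p = 0.53), with overlapping groups.

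MCM2 to MCM7 form the ring-shaped core of the replicative helicase. MCM7 (ENSG00000166508, chr7:100092728-100101940) had 1064, 1047 and 1055 CPM in the negative controls and 881, 891 and 895 CPM in the RAC3 samples (log2 fold change -0.25, standard error 0.0349, edgeR adjusted p = 3.5e-05). MCM2 had 462, 445 and 436 CPM in the negative controls and 376, 401 and 404 CPM in the RAC3 samples (log2 fold change -0.19, standard error 0.0419, edgeR adjusted p = 0.0027). Both genes fell without overlap of the groups, and the spread of MCM7 within each group was small next to its difference. Without the GC trend described below, MCM2 lost its call, at -0.05 (edgeR adjusted p = 0.34), and MCM7 was at -0.11 (edgeR adjusted p = 0.0088). MCM3, MCM4, MCM5 and MCM6 did not pass the threshold, with log2 fold changes of -0.09, -0.03, -0.05 and 0.05 (edgeR adjusted p = 0.083, 0.66, 0.45 and 0.46). MCM8, a relative of the ring subunits that acts mainly in recombination, was higher (log2 fold change 0.19, edgeR adjusted p = 0.046). The call of MCM8 was lost without the GC trend, at 0.08 (edgeR adjusted p = 0.34). The library kit is not stated to keep strand, so reads of overlapping genes on opposite strands cannot be told apart. In GENCODE release 29, AP4M1 on the other strand covers 7.58% of the exon bases of MCM7, and AC023593.1, which is not in the count table, covers 30.7% of those of MCM2.

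Many replication promoters carry E2F sites, so the promoter windows of the members were searched on both strands for the words TTTCGCGC, TTTGGCGC, TTTCCCGC and TTTGCCGC. Windows of 300 bases around a transcript start were taken from RefSeq (GRCh38.p14) and matched 45 of the 52 members. At least 1 word lay in 20 of these 45 windows (44.4%), beside 1164 of all 35116 promoter windows (3.31%). The words were found in 5 of the 7 genes that fell, in 3 of 9 that rose and in 12 of 29 that were not called. CCNE2 and GINS4, which also rose, had no window. The words are rich in G and C, and the genes that fell had the transcripts richer in GC, as described below. Whether the split by call goes with base composition was not tested. The CCAAT box, searched as CCAAT, lay in 24 of the 45 windows (53.3%) beside 34.6% of all windows, and the CHR element, searched as TTTGAA, lay in 2 of 45 (4.44%) beside 15.2%. By call, CCAAT lay in 2 of 7 windows of genes that fell (28.6%), 4 of 9 that rose and 18 of 29 not called, and both CHR matches were among the 9 that rose. A match is a description of these letters and not a measured site. To show the words in place, the 200 bases before the RefSeq start are given 5′ to 3′ for CDT1 (chr16:88803589-88803788, plus strand) and MCM7 (chr7:100101398-100101597, minus strand), which fell, RFC3 (chr13:33817949-33818148, plus strand) and SKP2 (chr5:36151911-36152110, plus strand), which rose, and MCM6 (chr2:135876444-135876643, minus strand), which was not called. The RefSeq starts differ from the gene bounds of GENCODE, which for RFC3 are chr13:33818049-33966558 and for MCM6 chr2:135839626-135876426. The runs of CDT1 and MCM7 thus lie within their GENCODE bounds, the runs of RFC3 and SKP2 reach into theirs, and that of MCM6 lies outside. Capitals mark the words.
CDT1: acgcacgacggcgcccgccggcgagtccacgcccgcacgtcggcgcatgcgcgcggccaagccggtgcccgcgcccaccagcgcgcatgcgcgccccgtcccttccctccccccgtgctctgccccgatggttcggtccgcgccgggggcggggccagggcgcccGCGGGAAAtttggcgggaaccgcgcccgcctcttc
MCM7: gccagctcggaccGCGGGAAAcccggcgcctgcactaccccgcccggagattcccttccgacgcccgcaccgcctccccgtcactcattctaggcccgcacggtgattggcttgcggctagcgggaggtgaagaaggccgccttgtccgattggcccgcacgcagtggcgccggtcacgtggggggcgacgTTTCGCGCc
RFC3: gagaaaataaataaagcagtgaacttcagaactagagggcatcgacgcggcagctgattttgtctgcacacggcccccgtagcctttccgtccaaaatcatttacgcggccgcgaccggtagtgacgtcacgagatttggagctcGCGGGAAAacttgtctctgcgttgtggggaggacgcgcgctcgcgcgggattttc
SKP2: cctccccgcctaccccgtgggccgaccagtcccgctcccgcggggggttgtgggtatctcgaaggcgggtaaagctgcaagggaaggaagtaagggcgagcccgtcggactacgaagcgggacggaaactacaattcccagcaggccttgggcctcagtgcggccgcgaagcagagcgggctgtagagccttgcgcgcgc
MCM6: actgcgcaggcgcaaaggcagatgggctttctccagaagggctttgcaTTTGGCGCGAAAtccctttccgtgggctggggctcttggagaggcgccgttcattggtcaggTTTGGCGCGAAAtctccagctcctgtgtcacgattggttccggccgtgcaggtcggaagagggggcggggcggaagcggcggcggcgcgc
Counting the base before the start as -1, the word of CDT1 begins at -35, those of MCM7 at -187 and -9, and that of RFC3 at -55. In MCM6 the words begin at -152, -148, -90 and -86, in overlapping pairs on opposite strands. The SKP2 window holds none of these words.

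Loaded MCM is turned into a moving helicase by CDC45, the 4 GINS subunits, MCM10 and the CDC7 kinase with its activating subunit DBF4. DBF4 had 38.8, 38.2 and 39.5 CPM in the negative controls and 50.5, 48.7 and 47.9 CPM in the RAC3 samples (log2 fold change 0.34, standard error 0.0637, edgeR adjusted p = 0.00064). GINS4 had 56.7, 59.0 and 61.6 CPM in the negative controls and 67.7, 67.3 and 70.6 CPM in the RAC3 samples (log2 fold change 0.21, standard error 0.0585, edgeR adjusted p = 0.011). Both rose with the groups apart, and the 3 controls of DBF4 lay within 1.3 CPM of each other. Without the GC trend DBF4 was at 0.20 (edgeR adjusted p = 0.018) and GINS4 at 0.20 (edgeR adjusted p = 0.01). CDC45 had 62.5, 61.8 and 62.2 CPM in the negative controls and 67.1, 65.9 and 68.1 CPM in the RAC3 samples (log2 fold change 0.11, edgeR adjusted p = 0.15). MCM10 had 42.2, 45.4 and 48.0 CPM in the negative controls and 51.6, 49.1 and 48.8 CPM in the RAC3 samples (log2 fold change 0.14, edgeR adjusted p = 0.12). The groups of these genes did not overlap although the test was not passed. GINS1 had 56.8, 59.5 and 57.9 CPM in the negative controls and 59.4, 63.4 and 66.2 CPM in the RAC3 samples (log2 fold change 0.12, edgeR adjusted p = 0.16), and its RAC3 sample 1 lay among the controls. GINS2, GINS3 and CDC7 had log2 fold changes of -0.06, -0.08 and 0.29 (edgeR adjusted p = 0.53, 0.57 and 0.052). CDC7 lay close to the threshold and was called higher with edgeR's exact test, a looser filter, library size scaling, removal of the transcript length trend and without RAC3 sample 1.

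PCNA is the sliding clamp that holds polymerases on DNA, and the RFC complex loads it. PCNA had 255, 269.8 and 282 CPM in the negative controls and 276, 271 and 270.2 CPM in the RAC3 samples (log2 fold change 0.02, edgeR adjusted p = 0.79), and all 3 RAC3 samples fell within the range of the controls. RFC4 had 26.4, 31.9 and 29.2 CPM in the negative controls and 32.2, 28.1 and 30.6 CPM in the RAC3 samples (log2 fold change 0.06, edgeR adjusted p = 0.67), with groups that overlapped as well. EIF4A2, which covers 1.31% of the RFC4 exon bases on the opposite strand, was itself lower (log2 fold change -0.36, edgeR adjusted p = 0.00013). RFC3 was the clamp loader subunit that rose (log2 fold change 0.23, edgeR adjusted p = 0.013). Its call was lost without the GC trend, at 0.08 (edgeR adjusted p = 0.35). RFC1, RFC2 and RFC5 had log2 fold changes of 0.07, -0.09 and 0.03 (edgeR adjusted p = 0.48, 0.27 and 0.73).

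Polymerase alpha with primase starts each strand, polymerase epsilon extends the leading strand and polymerase delta the lagging strand. POLD1, the catalytic subunit of polymerase delta, had 173, 157 and 153 CPM in the negative controls and 123, 140.0 and 146 CPM in the RAC3 samples (log2 fold change -0.24, standard error 0.0607, edgeR adjusted p = 0.0059). POLE, the catalytic subunit of polymerase epsilon, had 126, 124 and 117 CPM in the negative controls and 112, 109.5 and 112 CPM in the RAC3 samples (log2 fold change -0.14, standard error 0.0499, edgeR adjusted p = 0.044). Both catalytic subunit genes fell, with RAC3 sample 1 the lowest for POLD1 and the RAC3 samples close together for POLE. Without the GC trend both lost their calls, POLD1 at -0.02 (edgeR adjusted p = 0.76) and POLE at -0.03 (edgeR adjusted p = 0.68). On FPKM, POLE was at 0.02 (limma adjusted p = 0.85). POLA1, the catalytic subunit of polymerase alpha, had 54.9, 61.5 and 66.0 CPM in the negative controls and 64.7, 64.1 and 64.5 CPM in the RAC3 samples (log2 fold change 0.08, edgeR adjusted p = 0.39), and its groups overlapped. The other subunit genes POLA2, PRIM1, PRIM2, POLD2, POLD3 and POLE2 had log2 fold changes between -0.05 (POLD2) and 0.15 (POLD3), with edgeR adjusted p-values from 0.29 to 0.93. RPA1, RPA2 and RPA3 coat single-stranded DNA at the fork and had log2 fold changes of 0.06, 0.10 and -0.01 (edgeR adjusted p = 0.43, 0.23 and 0.95).

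FEN1 trims and LIG1 seals Okazaki fragments, the short pieces of the lagging strand. LIG1 had 118, 112 and 112 CPM in the negative controls and 103, 94.4 and 99.9 CPM in the RAC3 samples (log2 fold change -0.20, standard error 0.053, edgeR adjusted p = 0.009). FEN1 had 181, 188 and 191 CPM in the negative controls and 186, 189.8 and 187 CPM in the RAC3 samples (log2 fold change 0.01, edgeR adjusted p = 0.91). LIG1 thus fell with the groups apart, while the RAC3 samples of FEN1 lay inside the control range. The call of LIG1 was lost without the GC trend, at -0.08 (edgeR adjusted p = 0.29). It was also lost under library size scaling (edgeR adjusted p = 0.052) and on FPKM (limma adjusted p = 0.13). FEN1 shares 2.13% of its exon bases with FADS2 on the same strand, an abundant gene at 795 CPM that was lower (log2 fold change -0.62, edgeR adjusted p = 3.3e-09), so reads of FADS2 make the FEN1 value less certain. TMEM258 covers another 7.23% on the opposite strand.

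Deoxynucleotides for the fork come from ribonucleotide reductase, made of RRM1 and RRM2, and from thymidylate enzymes. TK1, the thymidine kinase of cycling cells, had 107, 102 and 107 CPM in the negative controls and 90.7, 93.6 and 97.8 CPM in the RAC3 samples (log2 fold change -0.17, standard error 0.0525, edgeR adjusted p = 0.023). RRM2, the subunit whose level limits the enzyme in S phase, had 176, 167 and 179 CPM in the negative controls and 172, 176 and 174 CPM in the RAC3 samples (log2 fold change -0.0007, edgeR adjusted p = 0.99). TYMS, thymidylate synthase, had 144, 151 and 150.04 CPM in the negative controls and 132, 142 and 145 CPM in the RAC3 samples (log2 fold change -0.09, edgeR adjusted p = 0.18). TK1 fell without overlap, and the groups of RRM2 and TYMS overlapped. Without the GC trend TK1 changed sign to 0.02 (edgeR adjusted p = 0.77), and under library size scaling it was not called (edgeR adjusted p = 0.12). ENOSF1, on the opposite strand, covers 58.2% of the TYMS exon bases at 15.0 CPM. RRM1 rose (log2 fold change 0.16, edgeR adjusted p = 0.03), and DUT, the enzyme that removes dUTP, had a log2 fold change of -0.03 (edgeR adjusted p = 0.75). The call of RRM1 was lost without the GC trend, at 0.08 (edgeR adjusted p = 0.21). In the annotation, 24 pseudogenes carry the name of 10 of the members (8 of them that of DUT) and have no line of their own in the count table, so reads of these near copies may be counted at the parent gene or lost.

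Entry into S phase is set by E2F1, by cyclin E, encoded by CCNE1 and CCNE2, and by SKP2, the receptor subunit of a ubiquitin ligase that removes the CDK inhibitor p27. SKP2 (ENSG00000145604, chr5:36151989-36184319) had 255, 257 and 269 CPM in the negative controls and 305, 306 and 302 CPM in the RAC3 samples (log2 fold change 0.22, standard error 0.0411, edgeR adjusted p = 0.00045). CCNE2 had 8.24, 8.99 and 9.14 CPM in the negative controls and 16.7, 11.2 and 13.4 CPM in the RAC3 samples (log2 fold change 0.65, standard error 0.141, edgeR adjusted p = 0.0019). SKP2 rose by a small amount that was even across the samples, while CCNE2 rose most in RAC3 sample 1. Without the GC trend SKP2 was at 0.11 (edgeR adjusted p = 0.032) and CCNE2 at 0.48 (edgeR adjusted p = 0.012). CCNE2 was the least counted member, and without RAC3 sample 1 its log2 fold change was 0.48, short of the fold limit of 1.5. Reads of INTS8 may add to it, since INTS8 (40.9 CPM, log2 fold change 0.15, edgeR adjusted p = 0.17) covers 47.5% of the CCNE2 exon bases on the opposite strand. CCNE1 had 19.6, 20.5 and 21.6 CPM in the negative controls and 21.9, 21.6 and 21.1 CPM in the RAC3 samples (log2 fold change 0.06, edgeR adjusted p = 0.63). E2F1 had 142, 132 and 138 CPM in the negative controls and 125, 124 and 128 CPM in the RAC3 samples (log2 fold change -0.13, edgeR adjusted p = 0.059). The groups of CCNE1 overlapped, and those of E2F1 were apart with the RAC3 samples below.

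**Figure D2:**
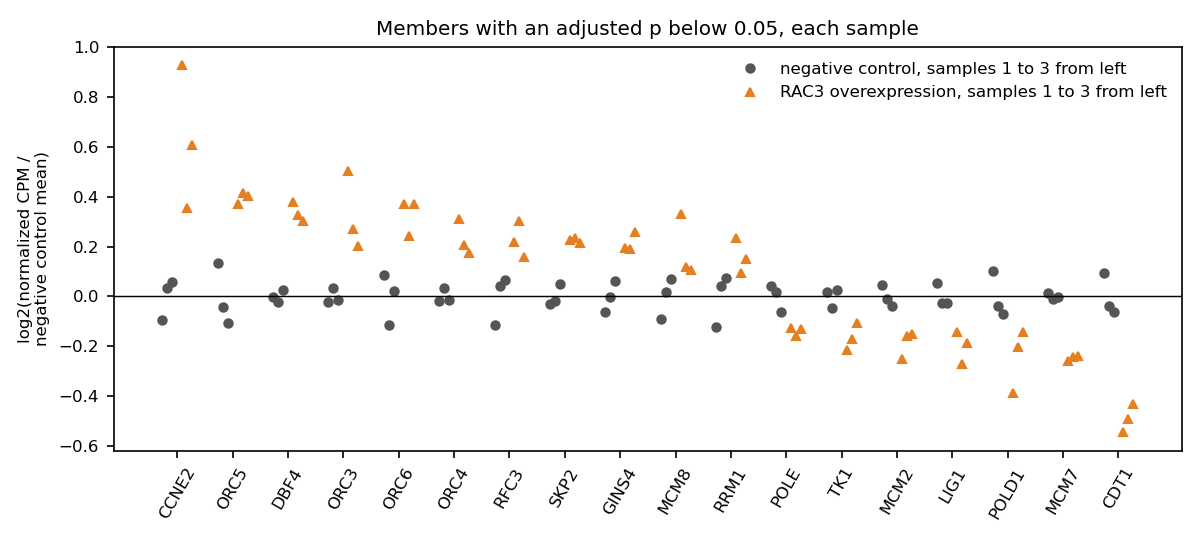
Log2 ratio of normalized CPM to the mean of the negative controls for the 18 members with an edgeR adjusted p below 0.05, in each negative control (circles) and RAC3 (triangles) sample. In all 18 genes the triangles lie wholly above or wholly below the circles, with CCNE2 the most spread and MCM7 and SKP2 among the tightest.

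The direction of the calls followed the base composition of the transcripts. The 11 members that rose had transcripts with 36.9% to 48.0% GC (median 41.0%), and the 7 that fell had 55.6% to 65.0% (median 58.1%), taking the longest transcript of each gene in GENCODE release 29. The same slope ran through all tested genes. With the genes split into 5 groups of equal size from the lowest to the highest GC content, the median log2 fold change of all genes was 0.15, 0.09, 0.01, -0.09 and -0.18, and that of the members in these groups was 0.26, 0.07, -0.01, -0.09 and -0.17. When each library's trend with GC content was removed, 7 members were higher and 2 lower by the same edgeR test, while 2684 genes in all were called in place of 3691.

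Of the 18 called members, 8 kept their call without the GC trend. Besides CDT1, MCM7 kept a lower call with a log2 fold change of -0.11 (edgeR adjusted p = 0.0088). ORC6 had 0.31 (edgeR adjusted p = 0.002), ORC5 0.28 (edgeR adjusted p = 0.019), GINS4 0.20 (edgeR adjusted p = 0.01), DBF4 0.20 (edgeR adjusted p = 0.018), CCNE2 0.48 (edgeR adjusted p = 0.012) and SKP2 0.11 (edgeR adjusted p = 0.032). ORC6 and GINS4, with 47.5% and 48.0% GC beside an all-gene median of 48.2%, moved least of these. Calls were lost for ORC3, ORC4, MCM8, RFC3 and RRM1 among the genes that rose and for MCM2, POLD1, POLE, LIG1 and TK1 among those that fell. POLD1 went to -0.02 (edgeR adjusted p = 0.76), ORC4 to 0.07 (edgeR adjusted p = 0.38) and MCM2 to -0.05 (edgeR adjusted p = 0.34), and TK1 changed sign to 0.02 (edgeR adjusted p = 0.77). CDC45 was gained at 0.15 (edgeR adjusted p = 0.037). Whether the GC slope arose in the library preparation or in the cells was not tested.

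**Figure D3:**
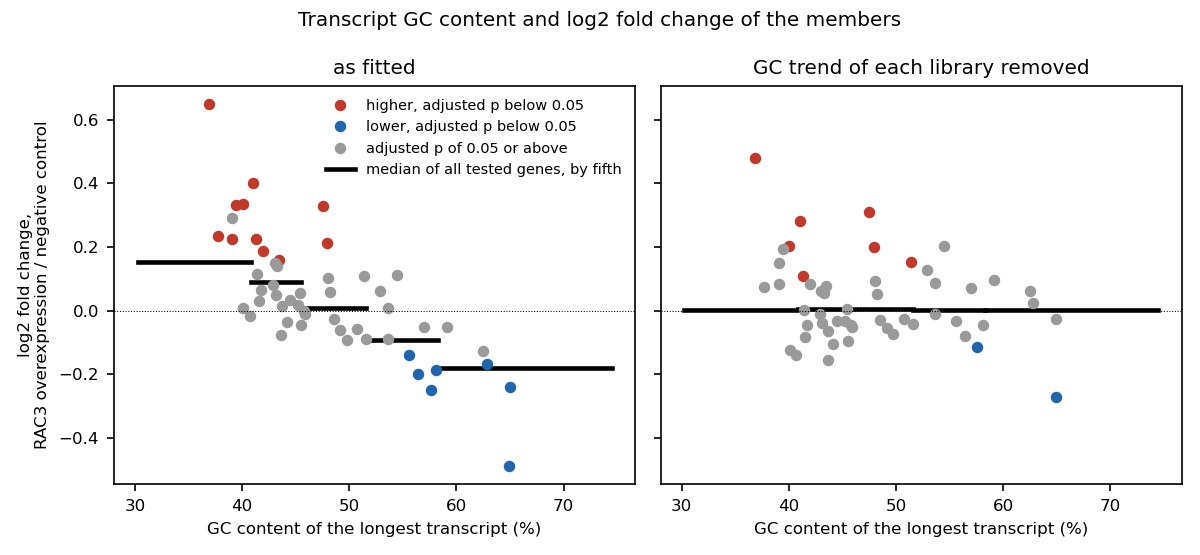
Log2 fold change of the 52 members (RAC3 overexpression over negative control) against the GC content of their longest transcript, as fitted (left) and with each library's GC trend removed (right). Black bars are the medians of all tested genes in 5 equal groups by GC content: on the left they step down from 0.15 to -0.18 with the members around them, and on the right they lie near 0, with 9 members coloured as called, of which 8 kept their call and CDC45 gained it.

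Scaling and single samples also touched the weaker calls. Scaled by library size alone, 15 members were higher and 4 lower, beside 2613 higher and 1381 lower of all genes and an all-gene median of 0.06. POLE, LIG1 and TK1 lost their calls under that scaling (edgeR adjusted p = 0.23, 0.052 and 0.12), and CDC45, GINS1, CDC7 and MCM10 were called higher. POLE lost its call when any sample other than negative control 3 was left out (edgeR adjusted p from 0.071 to 0.12). RRM1 lost it without negative control 1 or 2 or without RAC3 sample 1 or 3 (edgeR adjusted p from 0.061 to 0.16). MCM8 lost it without negative control 1 or 2 or RAC3 sample 1 (0.17, 0.11 and 0.27), TK1 without negative control 3 or RAC3 sample 1 or 2 (0.066, 0.084 and 0.056), RFC3 without negative control 1 or RAC3 sample 2 (0.067 and 0.061), and GINS4 without RAC3 sample 3 (0.057), each as edgeR adjusted p. The other 12 called members kept their calls without any single sample.

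Levels of different genes were compared as FPKM, the authors' values per transcript length, and were described without a test. The members were well expressed in the negative controls, from 3.99 FPKM (CCNE2) to 419 FPKM (MCM7), with a median of 25.8 FPKM beside 9.49 FPKM for the genes tested. The MCM ring subunits, which assemble in equal number, had unequal RNA levels: MCM7 at 419 ± 2.37 FPKM (SD, n = 3), MCM4 at 272 ± 17.7, MCM3 at 201 ± 3.16, MCM2 at 128 ± 2.77, MCM5 at 70.4 ± 5.86 and MCM6 at 50.8 ± 1.85. No neighbours in this order overlapped between samples, and the highest was 8.25 times the lowest. The order rests on the authors' transcript lengths, which are not given. By mean CPM in the controls, MCM3 (570) stood above MCM4 (547), and MCM6 (195) above MCM5 (183), but the control samples of both pairs overlapped. The longest transcripts of MCM3 and MCM6 are also the shorter ones of these pairs (3208 beside 4183 bases and 3736 beside 4599). In the origin recognition complex ORC6 (24.7 ± 1.59 FPKM) stood above ORC1 (16.0 ± 0.352), whereas ORC5, ORC4 and ORC3 (12.6 ± 0.705, 11.7 ± 1.05 and 11.5 ± 0.2995) overlapped their neighbours and ORC2 (6.40 ± 0.773) was lowest. Among GINS genes, GINS4, GINS2 and GINS1 overlapped at 21.2 ± 1.83, 20.0 ± 0.771 and 19.0 ± 1.75 FPKM and GINS3 was lower at 9.12 ± 0.259. Polymerase delta had the widest range, from POLD2 at 115 ± 1.24 FPKM to POLD3 at 8.81 ± 0.692. DBF4 (15.1 ± 0.298 FPKM) was above its kinase partner CDC7 (5.57 ± 0.771), and RRM1 and RRM2 overlapped.

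**Figure D4:**
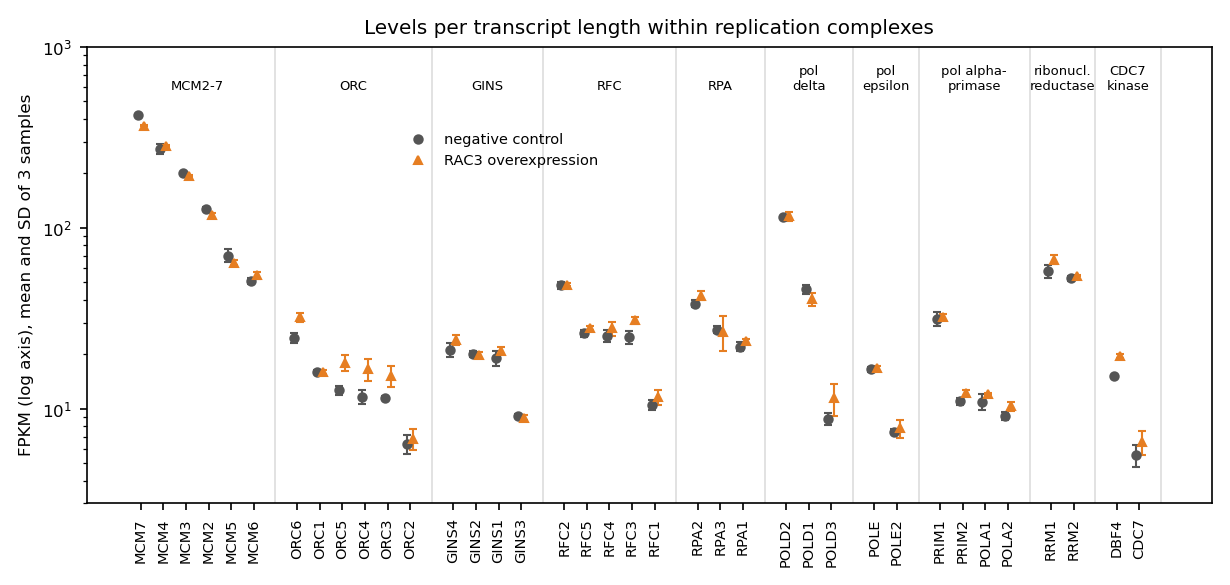
Mean FPKM with SD (3 samples) of the subunits of 10 replication complexes in the negative control (circles) and RAC3 overexpression (triangles) groups, on a log axis and ordered by the control level. The MCM subunits step down from 419 FPKM for MCM7 to 50.8 FPKM for MCM6 in the controls, and stand in the same order in the RAC3 samples.

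Genes beside the machinery were read from 7 lists by function. Their counts stand beside 13.3% of all tested genes higher and 15.3% lower, and, without the GC trend, beside 20.9% of all genes called in either direction. Of 29 other fork and initiation genes, 8 were higher and 1 lower. CLSPN, the fork mediator of the ATR checkpoint, rose (log2 fold change 0.34, edgeR adjusted p = 0.00076), as did ATAD5, which unloads PCNA (log2 fold change 0.42, edgeR adjusted p = 0.0043), and the topoisomerases TOP1 (log2 fold change 0.19, edgeR adjusted p = 0.0043) and TOP2A (log2 fold change 0.21, edgeR adjusted p = 0.0055). RNASEH2A, a subunit of the ribonuclease that removes ribonucleotides from DNA, fell (log2 fold change -0.23, edgeR adjusted p = 0.011). Without the GC trend, 2 of these 29 genes were higher and 1 lower. CLSPN and RNASEH2A kept their calls, while ATAD5, TOP1 and TOP2A lost theirs, at 0.26 (edgeR adjusted p = 0.057), 0.09 (edgeR adjusted p = 0.11) and 0.06 (edgeR adjusted p = 0.28). Of 11 genes that restore chromatin behind the fork, 1 was higher and 2 were lower, among them both subunits of the FACT histone chaperone in opposite directions, SUPT16H (log2 fold change 0.23, edgeR adjusted p = 0.0026) and SSRP1 (log2 fold change -0.19, edgeR adjusted p = 0.0053). DNMT1, the maintenance DNA methyltransferase, was lower (log2 fold change -0.13, edgeR adjusted p = 0.022) but lost its call without the GC trend, at -0.03 (edgeR adjusted p = 0.63), whereas SUPT16H and SSRP1 kept theirs.

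Of 23 tested genes of nucleotide synthesis outside the machinery, 2 were higher and 3 lower. IMPDH2, the rate-limiting enzyme of guanine nucleotide synthesis, had 282, 266 and 259 CPM in the negative controls and 182, 209 and 213 CPM in the RAC3 samples (log2 fold change -0.42, standard error 0.0549, edgeR adjusted p = 1.7e-05). Without the GC trend its log2 fold change was -0.36 (edgeR adjusted p = 1.3e-05). CAD, the enzyme of the first steps of pyrimidine synthesis, and ADSL, of purine synthesis, were also lower (log2 fold changes -0.17 and -0.14, edgeR adjusted p = 0.025 and 0.036). PRPS1 and PAICS, also of purine synthesis, were higher (log2 fold changes 0.22 and 0.19, edgeR adjusted p = 0.0041 and 0.012). Removal of the GC trend ended the calls of CAD, at -0.04 (edgeR adjusted p = 0.6), and PAICS, at 0.09 (edgeR adjusted p = 0.17), and kept those of ADSL and PRPS1.

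Upstream of the machinery, 4 of 19 tested cyclin, CDK, inhibitor and pocket protein genes of G1 were higher and 3 lower. CCND1, the cyclin that drives G1, had 433, 419 and 441 CPM in the negative controls and 315, 289 and 299.9 CPM in the RAC3 samples (log2 fold change -0.52, standard error 0.0428, edgeR adjusted p = 7.1e-08). MYC, a growth transcription factor counted in this list, had 62.5, 62.5 and 64.9 CPM in the negative controls and 84.6, 91.0 and 85.7 CPM in the RAC3 samples (log2 fold change 0.46, standard error 0.0561, edgeR adjusted p = 7.4e-06). Both had groups far apart in opposite directions, and both held without the GC trend, CCND1 at -0.49 (edgeR adjusted p = 2.1e-08) and MYC at 0.54 (edgeR adjusted p = 2.0e-07). The CDK4/6 inhibitor gene CDKN2B rose (log2 fold change 0.89, edgeR adjusted p = 2.3e-05), with CDK6 (log2 fold change 0.35, edgeR adjusted p = 0.00026) and the S phase cyclin CCNA2 (log2 fold change 0.23, edgeR adjusted p = 0.00095), while CDK4 (log2 fold change -0.19, edgeR adjusted p = 0.0098) and the inhibitor CDKN2C (log2 fold change -0.38, edgeR adjusted p = 0.041) fell. Of 9 E2F and DP factors, E2F8, a repressor, rose (log2 fold change 0.18, edgeR adjusted p = 0.042) and E2F5, which acts with pocket proteins, fell (log2 fold change -0.53, edgeR adjusted p = 0.00049). Without the GC trend, CDK4 was at -0.11 (edgeR adjusted p = 0.061), CDKN2C at -0.24 (edgeR adjusted p = 0.19) and E2F8 at 0.13 (edgeR adjusted p = 0.12), so these calls were lost. The list of cyclins and CDKs then had 4 genes higher and 1 lower.

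Genes of mitosis, which follow S phase in the cycle, were called higher in 12 of 25 cases and lower in 1 (beside 13.3% and 15.3% of all tested genes), with a median log2 fold change of 0.16. The mitotic kinases TTK (log2 fold change 0.46, edgeR adjusted p = 2.9e-05) and AURKA (log2 fold change 0.34, edgeR adjusted p = 7.3e-05), the kinesin CENPE (log2 fold change 0.43, edgeR adjusted p = 0.00016) and KIF23 of the cytokinetic bridge (log2 fold change 0.36, edgeR adjusted p = 0.00019) had the smallest p-values. MYBL2, a transcription factor of the late cell cycle, was lower (log2 fold change -0.12, edgeR adjusted p = 0.039) but changed sign without the GC trend, to 0.05 (edgeR adjusted p = 0.34), where 14 of the 25 genes were higher and the other 4 named genes kept their calls. Of 22 tested genes of the replication stress and p53 responses, 7 were higher and 2 lower. BRCA2 (log2 fold change 0.46, edgeR adjusted p = 0.0005) and BRCA1 (log2 fold change 0.31, edgeR adjusted p = 0.0077) of recombination and the p53 targets MDM2 (log2 fold change 0.28, edgeR adjusted p = 0.0034) and GADD45A (log2 fold change 0.28, edgeR adjusted p = 0.0084) rose, and the kinase WEE1 (log2 fold change -0.14, edgeR adjusted p = 0.049) and the p53 target BBC3 (log2 fold change -0.46, edgeR adjusted p = 0.044) were lower, both near the threshold. Without the GC trend, 4 of these 22 genes were higher and 1 lower, and the calls of BRCA1, at 0.20 (edgeR adjusted p = 0.055), MDM2, at 0.17 (edgeR adjusted p = 0.059), and BBC3, at -0.20 (edgeR adjusted p = 0.42), were lost. WEE1 was then lower by more, at -0.30 (edgeR adjusted p = 0.00053). The p53 target CDKN1A, counted in the list of G1 genes, was not called and its groups overlapped. Its log2 fold change was -0.13 as fitted (edgeR adjusted p = 0.4) and 0.01 without the GC trend (edgeR adjusted p = 0.96). The difference between these lists and the replication machinery was not tested.

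Markers of the cell type were read in the same way. All 9 hepatocyte markers were expressed, with ALB the most abundant at 2242, 2420.3 and 2441 CPM in the negative controls and 2384, 2116 and 2187 CPM in the RAC3 samples, as befits a hepatocyte-derived line. Of these, FGB, APOB and AFP were higher and TF and TTR lower (log2 fold changes 0.30, 0.20, 0.16, -0.56 and -0.26, edgeR adjusted p = 2.6e-05, 0.0016, 0.0089, 1.2e-08 and 0.00076). Without the GC trend AFP was at 0.01 (edgeR adjusted p = 0.84) and lost its call, and ALB, not called before, was lower at -0.20 (edgeR adjusted p = 9.3e-05). The 6 fibroblast markers summed to 231, 242 and 248 CPM in the negative controls and 284, 272 and 278 CPM in the RAC3 samples, led by LUM. Of the 4 tested, COL1A2 and LUM were higher and COL1A1 lower (log2 fold changes 0.51, 0.22 and -0.22, edgeR adjusted p = 9.9e-06, 0.0029 and 0.024). PDGFRB, not called, had the largest difference of the 4, with 3.51, 2.93 and 2.34 CPM in the negative controls and 1.63, 2.00 and 1.70 CPM in the RAC3 samples (log2 fold change -0.71, edgeR adjusted p = 0.057, unadjusted p = 0.017), and all RAC3 samples lay below all controls. DCN and ACTA2 were at or below 0.425 CPM in every sample. The calls of LUM and COL1A1 were lost without the GC trend, at 0.05 (edgeR adjusted p = 0.42) and -0.04 (edgeR adjusted p = 0.69). Endothelial markers were near 0 apart from PECAM1, the 1 gene tested of 4, at 2.26 to 3.34 CPM. Leukocyte markers summed to 37.3, 41.7 and 46.2 CPM in the negative controls and 33.1, 33.2 and 35.0 CPM in the RAC3 samples, so they were not all near 0. Among them PTPRC and CD3E lay at or below 0.507 CPM. Of the 2 leukocyte markers tested, CD14 was lower (log2 fold change -0.37, edgeR adjusted p = 0.002) and LYZ was not called (log2 fold change 0.48, edgeR adjusted p = 0.25).

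Single samples also bore on the calls named from these lists. With a sample left out, ADSL was called only without negative control 3 (edgeR adjusted p from 0.056 to 0.11 in the other fits), MYBL2 only without RAC3 sample 3 (0.052 to 0.14), and CDKN2C, E2F8 and WEE1 only without RAC3 sample 2 (0.054 to 0.21, 0.057 to 0.14 and 0.074 to 0.20). BBC3 and COL1A1 lost their calls in 4 fits each, BBC3 without negative control 1 or 2 or RAC3 sample 1 or 3 (edgeR adjusted p = 0.076, 0.18, 0.20 and 0.11) and COL1A1 without negative control 1 or 3 or RAC3 sample 1 or 3 (0.06, 0.07, 0.066 and 0.074). CAD lost its call without negative control 1 or 2 or RAC3 sample 1 (edgeR adjusted p = 0.064, 0.052 and 0.11), DNMT1 without negative control 1 or 3 or RAC3 sample 3 (0.059, 0.058 and 0.095), and RNASEH2A without RAC3 sample 1 or 3 (0.066 and 0.062). In a single fit each, calls were lost for PAICS without negative control 1 (edgeR adjusted p = 0.068), for GADD45A and AFP without negative control 2 (0.064 and 0.05), and for CDK4 and BRCA1 without RAC3 sample 1 (0.057 and 0.058). Scaling by library size alone ended the calls of ADSL, MYBL2, CDKN2C, WEE1, BBC3, COL1A1, DNMT1 and CAD (edgeR adjusted p = 0.20, 0.26, 0.072, 0.22, 0.068, 0.088, 0.18 and 0.12), and WEE1 also lay past the threshold with DESeq2 size factors and upper quartile scaling (0.05 and 0.051, where 0.05 here and for AFP is rounded from just above the threshold). DESeq2 did not call BBC3, CDKN2C, COL1A1, E2F8 or WEE1 (DESeq2 adjusted p = 0.069, 0.067, 0.053, 0.079 and 0.063). The other called genes named from these lists kept their calls without any single sample.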

How the data were processed

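RNA of Huh-7 cells with stable RAC3 overexpression (3 samples) and of negative controls (3 samples) was sequenced on an Illumina NovaSeq after oligo(dT) enrichment and NEBNext Ultra library preparation. The authors deposited a raw count per gene and sample. The authors also deposited FPKM for single samples and as group means, of which the means were not used here. The submitters' processing notes name HISAT2, Bowtie2 2.2.8, StringTie 1.3.1 and DESeq2 without roles, and the genome build, annotation and counting settings are not given in the sources used here. Samples were grouped by title.

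The count table was tested with edgeR 4.0.16 (R 4.3.3): filterByExpr (12941 of 20332 genes kept, all 52 members among them), TMM scaling, and the two-sided quasi-likelihood test of RAC3 overexpression against negative control with Benjamini-Hochberg adjustment over all genes tested. Standard errors were derived from the F statistic. The biological coefficient of variation was 0.0533. The edgeR test was tried on counts made with known changes, that is, tested on simulated data. In this comparison (12941 genes) it called 23 of 50 genes changed 1.2-fold and 48 of 50 changed 1.5-fold, so a change as small as that of most members can be missed. The simulation left 12741 genes unchanged, changed only genes with a mean of at least 50 counts and gave all genes the same spread. In the data 28.5% of genes were called, so these rates may not hold there. In the table, 617 genes lack a symbol and 3760 were not counted in any sample. Transcript GC content, length and exon overlaps came from GENCODE release 29 (GRCh38), with a value for 12863 of the tested genes and all 52 members, and 20113 of 20332 identifiers matched. Promoter windows came from RefSeq (GRCh38.p14).

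The members and lists were chosen with earlier results of these data known, so no list was tested as a set. Named were members with an adjusted p below 0.05 and groups apart (at most 8 per direction by smallest p), a set of members of each role, and from each other list at most 4 called genes per direction with the smallest p. Values in every sample are given for these members and RAC3, and from the other lists for IMPDH2, CCND1, MYC, ALB and PDGFRB, picked, like LYZ and CDKN1A, after the values were seen. The lists were other fork and initiation genes, replication-coupled chromatin genes, other nucleotide synthesis genes, cyclins, CDKs, inhibitors and pocket proteins of G1, E2F and DP factors, mitosis and proliferation genes, replication stress and p53 response genes, and hepatocyte, fibroblast, endothelial and leukocyte markers, of which an item is not reported here. The genes overlapping members (such as INTS8 and FADS2) were named after their values were seen, and the other members are given by fold change, range or count.

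The alternatives tried were scaling by DESeq2 size factors, by the upper quartile or by library size, testing with limma-voom (limma 3.58.1), DESeq2 1.42.0 or the exact test of edgeR, filters of any count and of 10 counts in every sample, the replicate number as a block, subtracting a lowess trend (span 0.3) on GC content or on transcript length from each library, limma on log2(FPKM + 1), and leaving out each sample in turn.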

Additional observations from a re-analysis of the deposited data

How the results depend on the processing

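Counts of 11 members higher and 7 lower changed as follows, and causes were not tested. With each library's GC trend removed they were 7 and 2, 0 members were past the fold limit, and the median log2 fold change was -0.0031 in place of 0.0244. Under library size scaling 15 were higher and 4 lower, with a median of 0.0806. On FPKM with limma 10 were higher and 2 lower, 0 past the fold limit, with a median of 0.0815, beside 1304 higher and 857 lower of all genes (1717 and 1974 before) and an all-gene median of 0.0442. With the length trend removed the median was 0.0509. DESeq2 size factors and upper quartile scaling gave 11 and 7, and DESeq2, edgeR's exact test, limma-voom and the filters gave 10 to 12 higher and 6 to 8 lower. DESeq2 left out MCM8 and POLE, limma-voom MCM8, and length removal MCM8 and TK1. Limma on FPKM left out MCM2, GINS4 (0.18, limma adjusted p = 0.13), POLD1, POLE, LIG1, RRM1 and TK1. Calls were gained by CDC7 with the exact test, the filter of any count and length removal, by E2F1 with the filter of 10 counts, and by CDC45 with length removal and on FPKM. Leaving out single samples gave 8 to 11 higher, 5 to 6 lower, 0 to 1 past the fold limit (0 without RAC3 sample 1), 24 to 32 without overlap and a median of 0.0017 to 0.0442. In these fits 20.2% to 25.4% of all genes were called in place of 28.5%, and with 2 samples in a group more genes are free of overlap by construction.

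A sign changed for called values of TK1 (0.0244) and MYBL2 (0.048) without the GC trend and of POLE on FPKM (0.0213), and the cause was not tested. Over the 18 alternatives, 50 values of 20 genes that were uncalled before and after also changed sign. RAC3 stayed between 2.74 and 3.04.

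No pairing by replicate number was seen over all tested genes: deviations of same-numbered samples correlated at 0.007, 0.049 and 0.039, none over 0.1. RAC3 sample 1 correlated about as much with negative control 3 (0.008) as with negative control 1 (0.007). Counting error lowers such correlations, so they do not settle whether the samples were paired. With the number as a replicate block 10 members were higher (CDC7 among them) and 6 lower, 1 was past the fold limit, the median was 0.03 and RAC3 was at 2.81. MCM8, POLE and RRM1 lost their calls in this fit, in which 25.2% of all genes were called.

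There were 3 samples a group, and fold changes were mostly under 1.5. CCNE2, the least counted member, had the largest standard error of the members (0.141). Its call was kept without any single sample, while those of the better counted POLE, RRM1 and TK1 were not. An adjusted p above 0.05 does not show equal levels.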

Other observations

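Replication-dependent histone genes, whose mRNA rises in S phase and mostly lacks a poly(A) tail, were looked at after the values had been seen, by symbol pattern and without a test of the group. Of 69 such genes in the table, 12 were tested and 4 were higher at an edgeR adjusted p below 0.05 (H4C14, H2BC5, H2AC6 and H2BC12), beside 13.3% of all tested genes. Without the GC trend H2AC6 lost its call (edgeR adjusted p = 0.068), and H1-2 gained one (edgeR adjusted p = 0.013). None was lower by edgeR's quasi-likelihood test, also at an unadjusted p below 0.05. Summed over the 69 genes, the level was 44.8, 45.9 and 44.5 CPM in the negative controls and 52.96, 59.8 and 56.3 CPM in the RAC3 samples, so the lowest RAC3 sample lay above the highest control. H4C14 was counted 14, 9 and 26 times in the controls and 39, 49 and 39 times in the RAC3 samples (log2 fold change 1.34, edgeR adjusted p = 0.0053) and was the only one of the 4 called without any single sample. H2BC12 was called in 1 of the 6 fits that left out a sample, H2BC5 in 3 and H2AC6 in 4. The filter needs enough counts in 3 samples, which the controls alone did not give for H4C14 and H2BC5. H2BC5 was counted 22, 24 and 11 times in the controls. Both genes were thus tested only through the RAC3 samples, where they were high. The count of 4 beside 13.3% therefore cannot be read as a rise of the group. Counts are low, and in a library enriched for poly(A) RNA they show only the polyadenylated share of these transcripts.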
